A study of Rattus norvegicus with 6 samples.

Results

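Ryr2, Atp2a2, Sln, Pln, Casq2, Cacna1c, Gja1, Gja5 and Hcn4 encode proteins that move calcium in heart muscle or carry its electrical signal. These 9 genes were chosen by symbol among the 17833 genes of the deposited table, and all 9 were listed. They were measured by bulk RNA-seq in pulmonary veins (PVs) from 3 rats whose veins were banded on both sides (bilateral PV banding, BPVB) and from 3 rats with a sham operation. All were wild-type Sprague-Dawley rats operated on at postnatal day 1, with the PVs of the right upper lobe collected at postnatal day 21. The BPVB group had sutures tied around the veins over a padding needle that was then withdrawn. In the sham group the veins were exposed and a suture was placed and taken out again, without the tie. Both groups shared the anesthesia by cooling on ice, the opening of the chest and the exposure of the veins. The question put to these genes was how the transcripts of the cardiac muscle around the veins differed after banding.

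Pulmonary veins enter the left atrium and carry a sleeve of atrial-type heart muscle in their wall. In such muscle, calcium entering through the L-type channel (Cacna1c) opens the ryanodine receptor (Ryr2) of the sarcoplasmic reticulum, whose lumen holds calcium on calsequestrin (Casq2). The pump encoded by Atp2a2 returns the calcium, and the small membrane proteins phospholamban (Pln) and sarcolipin (Sln) restrain that pump. Gap junctions built from connexins (Gja1, Gja5) pass the impulse from cell to cell, and the Hcn4 channel carries the pacemaker current. The myocardial sleeve of the PVs is known as a site where atrial arrhythmias begin.

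The upstream sequences of the genes for release, storage and uptake (Ryr2, Casq2, Atp2a2) are shown because the balance between their transcripts differed after banding (ratios given further on). Each run covers the 250 bases before the gene start in RefSeq, which held such a window for 7 of the 9 genes (GRCr8, plus strand). They lie at chr17:63081277-63081526 for Ryr2, chr2:192214306-192214555 for Casq2 and chr12:39733269-39733518 for Atp2a2. Capitals mark matches on either strand to the GC box GGGCGG, the CCAAT box CCAAT or the MEF2 motif, and TATAAA was also searched.
Ryr2: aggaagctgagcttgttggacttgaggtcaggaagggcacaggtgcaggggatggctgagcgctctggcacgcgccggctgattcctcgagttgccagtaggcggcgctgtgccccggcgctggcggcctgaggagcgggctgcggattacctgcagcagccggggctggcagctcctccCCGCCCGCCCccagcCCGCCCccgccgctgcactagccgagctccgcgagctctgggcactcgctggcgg
Casq2: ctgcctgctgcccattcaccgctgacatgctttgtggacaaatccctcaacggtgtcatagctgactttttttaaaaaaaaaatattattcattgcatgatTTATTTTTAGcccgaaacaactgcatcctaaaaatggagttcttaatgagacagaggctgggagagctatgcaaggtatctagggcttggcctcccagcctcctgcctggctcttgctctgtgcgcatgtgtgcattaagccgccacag
Atp2a2: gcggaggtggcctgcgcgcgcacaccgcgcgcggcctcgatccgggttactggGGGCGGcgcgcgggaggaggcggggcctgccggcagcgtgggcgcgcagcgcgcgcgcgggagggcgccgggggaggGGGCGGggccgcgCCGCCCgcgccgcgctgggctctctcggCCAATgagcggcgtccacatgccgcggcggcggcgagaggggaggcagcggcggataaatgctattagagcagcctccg
The Ryr2 and Atp2a2 windows each held 3 GC boxes, a motif found in 30.5% of 33465 upstream windows of this length, and in Ryr2 a pair of them overlapped. Their GC content was 72% and 80%, above the median of 51.2% over all windows. The Casq2 window was 46.4% GC and held the MEF2 motif, found in 2.96% of windows, and the Atp2a2 window held a CCAAT box, found in 34% of them. TATAAA, found in 12.9% of windows, was in none of the 3. These matches describe letters in the windows and not bound sites.

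The deposited unit was FPKM (fragments divided by gene length and by the library total), so that levels of different genes can be set side by side. Library totals were between 23439506 and 29725808 fragments. At the level of the tissue, the markers of heart muscle were high. Tnnt2, the cardiac troponin T gene, had a mean of 2412 FPKM in the sham group, and the atrial light chain gene Myl7 had 8131. The ventricular markers Myl2, Myh7 and Hey2 added up to between 74.2 and 78.3 FPKM in the sham libraries, and 7 markers of skeletal muscle to between 4.33 and 5. In the BPVB libraries Myl7 had a mean of 5408 FPKM, and these sums were between 62.4 and 68.1 and between 4.45 and 6.76. The muscle in these samples was thus of the atrial type by its markers.

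Differences were tested with limma on log2(FPKM + 0.5) for the 15150 genes whose FPKM averaged 0.1 or more, two-sided with Benjamini-Hochberg adjustment, and a gene was called at an adjusted p under 0.05. All 9 genes passed the filter. The test called 6 of the 9, with Ryr2, Pln, Gja1 and Hcn4 higher and Atp2a2 and Sln lower in the BPVB group. Of all genes tested, 31.5% were called, 17.2% higher and 14.3% lower. Of the 9, 0 combined a call with a log2 fold change of over 1 in size, which 3.27% of all genes tested did. This depended on the settings and on a single sham library. Hcn4 passed this mark with a pseudocount of 0.1 (log2 fold change 1.32, adjusted p = 0.004) and with limma-voom (1.46, adjusted p = 1.5e-04). It also did so at the pseudocount of 0.5 without sham replicate 1 (1.08, adjusted p = 0.0024). For 8 of the 9 genes no BPVB value lay within the range of the sham values, 5 of them higher and 3 lower in the BPVB group. This held for 45.6% of all genes tested, 25.2% higher and 20.5% lower. The median absolute log2 fold change was 0.27 for the 9 genes and 0.18 for all genes tested. Nothing in the labels names the litter or day of the rats, and the p-values measure only the spread between these libraries.

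**Figure D1:**
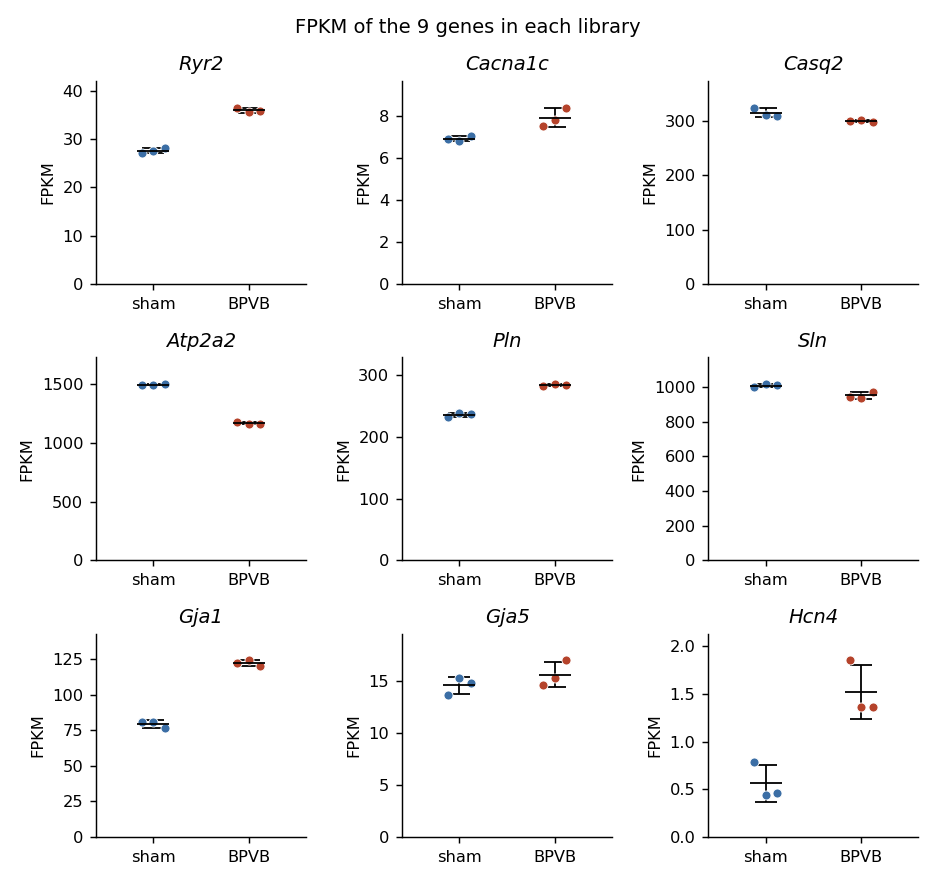
FPKM of each gene (vertical axes, starting at 0) in the 3 sham and 3 BPVB libraries. Points are libraries and black bars are the mean ± SD (n = 3 per group). Gja5 is the gene whose groups overlap, and Atp2a2, Sln and Casq2 lie lower in the BPVB libraries.

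Ryr2 (NCBI Gene 689560), the channel that releases calcium from the sarcoplasmic reticulum, rose after banding. Its FPKM was 36.5, 35.5 and 35.7 in BPVB and 27.1, 27.6 and 28.1 in sham libraries. Every BPVB library lay above every sham library. The mean was 35.9 ± 0.56 (SD, n = 3) against 27.6 ± 0.47 (SD, n = 3), and limma gave a log2 fold change of 0.38 with a standard error of 0.039 (adjusted p = 0.00013). Between 10591 and 17456 fragments lay behind each value.

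Cacna1c (NCBI Gene 24239), the pore of the L-type calcium channel and also a gene of smooth muscle, did not pass the threshold. Its FPKM was 7.54, 7.8 and 8.4 in BPVB and 6.91, 6.81 and 7.05 in sham libraries. The groups did not overlap, but the BPVB values were more spread out (SD 0.44 against 0.12, n = 3 each). On the log2 scale the difference was 0.18 ± 0.072 (standard error; adjusted p = 0.09, limma). On the recovered fragments, with limma-voom, it was 0.19 with an adjusted p of 0.015.

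Casq2 (NCBI Gene 29209), the calcium-binding protein of the reticulum lumen, was not called, with means of 299 FPKM after BPVB and 314 FPKM after sham surgery. Its FPKM was 300, 301 and 298 in BPVB and 324, 310 and 309 in sham libraries. The sham values were higher without overlap, with sham replicate 1 above the others. The fitted log2 difference of -0.07 had a standard error of 0.026 and an adjusted p of 0.073 (limma). The adjusted p was 0.025 after median-of-ratios scaling and 0.0042 with limma-voom, and 0.76 after quantile normalization.

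Atp2a2 (NCBI Gene 29693), the pump that refills the reticulum, was the highest of the 9 genes in both groups and fell the most. Its FPKM was 1177, 1165 and 1164 in BPVB and 1495, 1495 and 1504 in sham libraries. The groups were far apart, with SDs of 7.1 and 5.1 FPKM (n = 3 each). The mean fell by 22%, and limma gave a log2 fold change of -0.36 with a standard error of 0.018 (adjusted p = 1.6e-06). The gene took 0.787% of all fragments of the sham libraries and 0.614% of those of the BPVB libraries. In bulk samples, fewer heart muscle cells and less RNA of the gene per cell cannot be told apart.

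Pln (NCBI Gene 64672), the inhibitor of this pump in heart muscle, moved the other way. Its FPKM was 282, 285 and 283 in BPVB and 232, 238 and 236 in sham libraries. All BPVB values were above all sham values, and the mean was 20.5% higher. On the log2 scale the difference was 0.27 ± 0.024 (standard error; adjusted p = 5.0e-05, limma).

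Sln (NCBI Gene 367086), a shorter relative of phospholamban found in atrial muscle, fell by a small amount. Its FPKM was 942, 938 and 973 in BPVB and 998, 1017 and 1009 in sham libraries. The groups did not overlap, with a narrow gap between BPVB replicate 3 and sham replicate 1. The fitted log2 difference of -0.08 had a standard error of 0.022 and an adjusted p of 0.02 (limma). The call was lost without BPVB replicate 2 (adjusted p = 0.065), without sham replicate 2 (0.073) or without sham replicate 3 (0.06), and under TPM scaling (0.093).

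Gja1 (NCBI Gene 24392), the main connexin of working heart muscle and one that fibroblasts and vessel cells also make, rose after banding. Its FPKM was 122, 124 and 120 in BPVB and 80.6, 80.9 and 76.3 in sham libraries. The lowest BPVB library was well above the highest sham library, and the mean was 54.1% higher. Limma gave a log2 fold change of 0.62 with a standard error of 0.034 (adjusted p = 2.4e-06). Between 5751 and 11289 fragments lay behind each value.

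Gja5 (NCBI Gene 50563), the connexin of atrial muscle, the fast conduction system and arterial endothelium, was the gene whose groups overlapped. Its FPKM was 14.6, 15.3 and 17 in BPVB and 13.7, 15.3 and 14.8 in sham libraries. BPVB replicate 1 lay below sham replicates 2 and 3. On the log2 scale the difference was 0.09 ± 0.071 (standard error; adjusted p = 0.36, limma), and the 16 alternative fits gave values between 0.03 and 0.14 with no call.

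Hcn4 (NCBI Gene 59266), the pacemaker channel of the sinus node and of nodal-type cells, was the lowest of the 9 genes and differed the most in relative terms. Its FPKM was 1.85, 1.36 and 1.36 in BPVB and 0.789, 0.443 and 0.457 in sham libraries. The groups did not overlap, and replicate 1 was the highest library of each group. Only 195, 140 and 160 fragments in BPVB and 74, 41 and 43 in sham libraries lay behind these values. The mean FPKM was 2.71-fold higher in the BPVB group. On log2(FPKM + 0.5), which understates the change of a low gene, the fitted log2 difference of 0.94 had a standard error of 0.17 and an adjusted p of 0.0031 (limma). It was 0.69 with a pseudocount of 1, 1.32 with a pseudocount of 0.1 and 1.46 with limma-voom on the fragments.

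**Figure D2:**
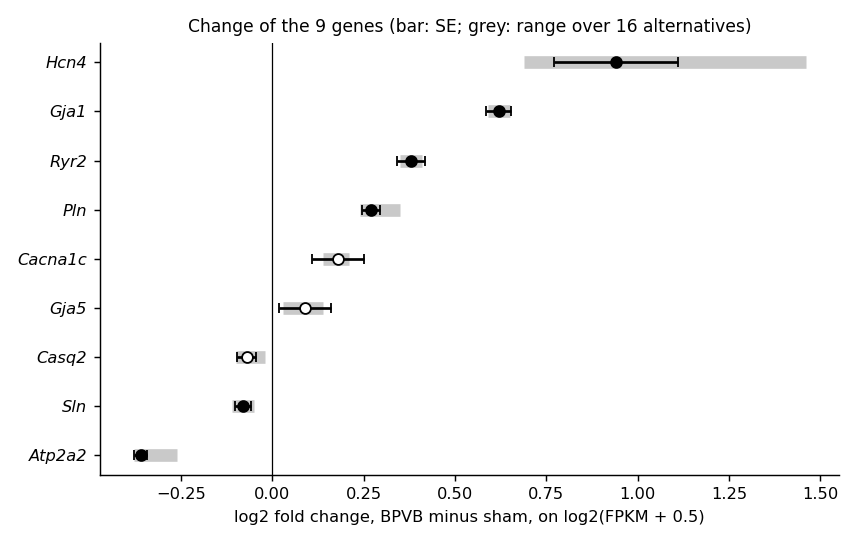
Log2 fold change (horizontal axis, BPVB minus sham) of each gene with its standard error; filled points had an adjusted p under 0.05 and open points did not. Grey bars show the range over 16 alternative fits, which is widest for Hcn4 (0.69 to 1.46) and crosses 0 for none of the 9 genes.

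The order of the levels was the same in both groups. It ran from Atp2a2 through Sln, Casq2, Pln, Gja1, Ryr2, Gja5 and Cacna1c to Hcn4. No neighbours overlapped in any library of a group. The closest were Casq2 and Pln, whose means differed 1.34-fold in the sham group and 1.06-fold in the BPVB group. Among all 17833 genes, Atp2a2 ranked 27 by mean FPKM in the sham group and 41 in the BPVB group, and Sln ranked 64 and 74. Hcn4 ranked 12882 and 11453.

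Ratios of FPKM within a library do not depend on the scaling between libraries. Phospholamban relative to the pump, Pln/Atp2a2, was 0.24, 0.245 and 0.244 in BPVB and 0.155, 0.159 and 0.157 in sham libraries, a 1.54-fold difference. Sln/Atp2a2 was 0.814 ± 0.019 (SD, n = 3) after BPVB and 0.673 ± 0.0065 (SD, n = 3) after sham surgery, or 1.21-fold higher. Both small regulators thus made up more of the transcripts per pump transcript, and Pln did so by the larger margin, since Sln/Pln was 3.35 ± 0.074 against 4.28 ± 0.026 (SD, n = 3 each).
The pump relative to the release channel, Atp2a2/Ryr2, was 32.5 ± 0.33 after BPVB and 54.3 ± 0.76 after sham surgery (SD, n = 3 each). Casq2/Ryr2 was 8.34 ± 0.14 against 11.4 ± 0.47, and Cacna1c/Ryr2 was 0.22 ± 0.014 against 0.251 ± 0.0039 (SD, n = 3 each). Ryr2 was thus higher relative to the pump, to calsequestrin and to the L-type channel alike.
For the connexins, Gja5/Gja1 was 0.128 ± 0.012 after BPVB and 0.184 ± 0.013 after sham surgery (SD, n = 3 each). Hcn4/Gja5 was 0.0987 ± 0.025 against 0.0392 ± 0.016 (SD, n = 3 each). In all 8 of these ratios the groups did not overlap. A two-sided exact permutation test gave p = 0.1 for each (0.1 after adjustment over 17 ratios), the smallest that 3 rats against 3 allow. The ratios share genes, and 8 of the 9 genes already differed without overlap on their own. The ratios therefore restate the results of single genes and are not independent of them. The share of other gene pairs without overlap was not computed.

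**Figure D3:**
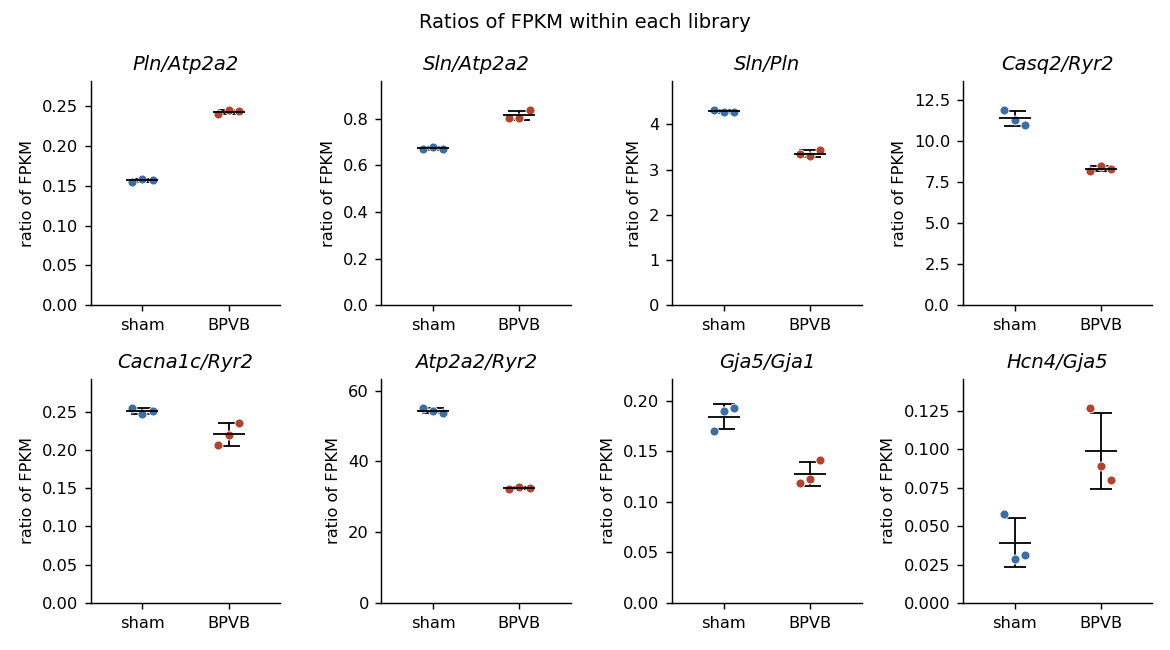
Ratios of FPKM (vertical axes, starting at 0) within each sham and BPVB library. Points are libraries and bars the mean ± SD (n = 3 per group); Pln/Atp2a2 lies near 0.243 in the BPVB group and 0.157 in the sham group, and Atp2a2/Ryr2 near 32.5 and 54.3.

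The markers of heart muscle moved with the groups. Of 13 cardiomyocyte markers, 8 were lower and 3 higher in the BPVB group, and their summed FPKM was between 12720 and 12859 in the BPVB libraries and between 16788 and 17078 in the sham libraries. None was at 0. The sarcomere genes Ttn (log2 fold change -0.92), Tcap (-0.79) and Tnni3 (-0.69) fell the most, while Myl3 (1.41), the transcription factor gene Nkx2-5 (0.37) and Actn2 (0.29) were higher. Of 5 atrial markers in the table, 3 were lower and 2 higher, and their sum was between 7280 and 7630 against between 10277 and 10475 FPKM. Their geometric mean, which the most abundant of them does not dominate, overlapped between the groups, with 277 to 286 FPKM in BPVB and 279 to 298 FPKM in sham libraries.
Set against the geometric mean of the 13 markers in the same library, 8 of the 9 genes were higher in every BPVB library than in any sham library, and Atp2a2 was lower. On the same scale this held for 45.1% of all genes tested in the higher direction and for 9.83% in the lower direction, since the marker mean itself was lower after BPVB, with 363 to 369 FPKM against 409 to 420 FPKM. Atp2a2 was at 3.19 ± 0.044 times this level after BPVB and 3.63 ± 0.061 times after sham surgery (SD, n = 3 each). Pln was 1.36-fold higher on this scale, Ryr2 1.47-fold, Gja1 1.74-fold and Hcn4 3.14-fold. Cacna1c was 1.29-fold and Gja5 1.21-fold higher, and Sln and Casq2 were 1.06-fold and 1.07-fold higher. With the geometric mean of the atrial markers as denominator, the log2 difference of Atp2a2 went from -0.18 to -0.32, that of Cacna1c from 0.36 to 0.23 and that of Gja5 from 0.27 to 0.13. Ryr2 went from 0.55 to 0.42, Pln from 0.44 to 0.30, Gja1 from 0.80 to 0.66 and Hcn4 from 1.65 to 1.51. Sln went from 0.09 to -0.05 and Casq2 from 0.10 to -0.03, so that the direction of these small differences depended on the markers chosen.

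Markers of other cell types, of the vein or of the lung around it, also moved, and their part in these results was not tested. Markers of lung epithelium summed to between 604 and 651 FPKM in the BPVB libraries and between 65.6 and 67.6 in the sham libraries. Of the 10 markers, 9 were called higher. Foxj1 was too low to be tested, at 0 in all BPVB libraries and at most 0.0365 FPKM in a sham library. Macrophage markers summed to between 655 and 677 against between 212 and 217, with 6 of 7 higher. Fibroblast markers, which matter for Gja1, summed to between 5074 and 5111 against between 4591 and 4601 FPKM, with 3 higher and 2 lower of 6. Smooth muscle markers, which matter for Cacna1c, summed to between 3982 and 4037 against between 4318 and 4399, with 5 lower and 1 higher of 8. For Gja5, 5 markers of arterial endothelium summed to between 52.3 and 58.3 against between 70.9 and 72.6, with 2 lower and none higher. General endothelial markers were lower in 6 of 8. For Hcn4, a channel that neurons also make, neuron markers summed to between 14.2 and 17.4 against between 24 and 27.9, with 6 of 9 lower. Phox2a, Chat and Slc18a3 were at 0 in all BPVB libraries. Of these, Chat was too low to be tested, with at most 0.261 FPKM in a sham library. Schwann cell markers were lower in 3 of 4 and higher in 1, mesothelial markers lower in 2 of 4. No skeletal muscle marker was called, and 1 of 3 ventricular markers in the table was lower.

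**Figure D4:**
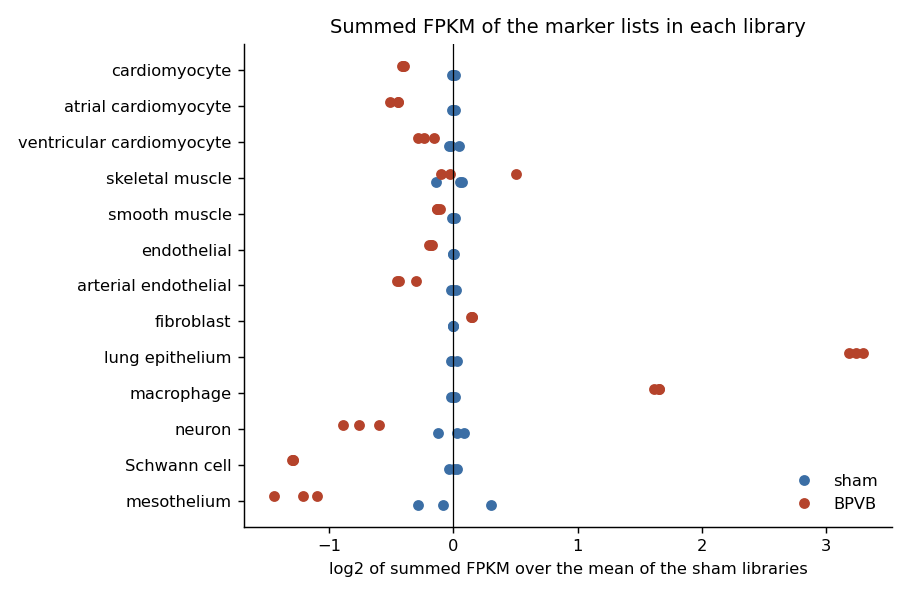
Summed FPKM of each list of cell type markers, as log2 over the mean of the 3 sham libraries (horizontal axis); points are libraries. Heart muscle lists lie lower in the BPVB libraries (cardiomyocyte sum 0.756 times the sham mean), and lung epithelium (9.44 times) and macrophage (3.12 times) lists higher.

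The genes around these 9 in the same machinery were grouped in 6 lists of 111 genes, of which 109 were in the table and 103 were tested. The test called 17 higher and 31 lower, or 46.6% of those tested beside 31.5% of all genes. The median log2 fold change was -0.07, beside 0.02 for all genes tested.
In the list for the release complex, 10 of 21 tested genes were lower and 1 was higher (52.4% called). Tmem38a, a counter-ion channel of the reticulum, fell from 141 ± 2.2 to 75.8 ± 1.4 FPKM (SD, n = 3 each), with a log2 fold change of -0.89 (standard error 0.03, adjusted p = 1.6e-07, limma). Hrc, a calcium-binding protein of the reticulum lumen, fell from 217 ± 3.3 to 118 ± 0.91 FPKM (SD, n = 3 each; log2 fold change -0.87). Casq1 (-0.57), the skeletal form of calsequestrin, came next. Trdn, which anchors calsequestrin to the ryanodine receptor, was also lower (-0.44). Camk2d, a kinase that phosphorylates Ryr2 and Pln, was the gene of the list that rose (log2 fold change 0.52). Ryr2 was thus higher beside lower Hrc, Trdn and Tmem38a.
In the list for pump regulation, 5 of 10 tested genes were lower and none higher (50% called). The protein phosphatase regulators Ppp1r1a (-0.59) and Ppp1r3a (-0.55) and the pump gene Atp2a3 (-0.51) fell the most. Atp2a3, a pump of endothelial and blood cells, had a mean of 20 FPKM in the BPVB group, far below Atp2a2. Strit1 and Arln were not analysed here.
In the list for calcium entry and exit at the cell membrane, 5 genes were higher and 5 lower of 18 (55.6% called). Cacna2d1, an auxiliary subunit of the L-type channel, rose from 5.07 ± 0.39 to 10.5 ± 0.78 FPKM (SD, n = 3 each; log2 fold change 0.98). Gem (0.71), which restrains calcium channels, and Cacna2d2 (0.55) followed. Cacnb1 (-0.78), the T-type channel gene Cacna1h (-0.74) and the caveolin gene Cav3 (-0.46) fell the most. The T-type channel gene Cacna1g was higher (0.42), and the sodium-calcium exchanger gene Slc8a1 was lower (-0.26). Of the auxiliary subunit genes of calcium channels, Cacna2d1 and Cacna2d2 were thus higher. Cacnb1, which fell, was low, with a mean of 0.47 FPKM after BPVB and 1.14 FPKM after sham surgery. Cacnb2 (0.06, adjusted p = 0.64, limma) and Cacnb3 (0.36, adjusted p = 0.052, limma) were not called.

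In the list of connexins and intercalated disc genes, 4 were higher and 2 lower of 15 tested (40% called, beside 31.5% of all genes tested). Gja4, a connexin of endothelium, rose from 27.8 ± 0.93 to 40.4 ± 2.6 FPKM (SD, n = 3 each; log2 fold change 0.53), followed by the adhesion genes Cdh2 (0.46) and Pkp2 (0.33). Dsg2 (-0.30) and Tjp1 (-0.15) fell. Gjc1, the connexin of nodal tissue, was not called (-0.08, adjusted p = 0.56).
In the list for pacemaker and conduction genes, 4 were higher and 7 lower of 23 tested (47.8% called). The sodium channel subunit genes Scn3b and Scn4b moved apart. Scn3b rose from 1.72 ± 0.45 to 3.98 ± 0.32 FPKM (SD, n = 3 each; log2 fold change 1.03), and Scn4b fell from 2.6 ± 0.32 to 0.463 ± 0.18 (log2 fold change -1.70). No other tested gene of the 6 lists was both called and changed by over 1 on log2(FPKM + 0.5). Gpd1l (0.54), which encodes an enzyme of glycerol metabolism, was also higher. Popdc3 (-0.55) and Fgf12 (-0.37) followed Scn4b among the falls. Of the nodal transcription factor genes, Shox2 was lower (-0.21), Tbx3 (0.26, adjusted p = 0.06) and Tbx18 (-0.12, adjusted p = 0.53) were not called, and Isl1 was too low to be tested. Hcn2 (-0.07), a relative of Hcn4, was not called (adjusted p = 0.73).
In the list for adrenergic and muscarinic control, 3 were higher and 2 lower of 16. These were 31.2% of the list, near the 31.5% called of all genes tested. Grk5 (0.24), a kinase of such receptors, and Adcy6 (0.23), an adenylate cyclase, rose, and Prkar2b (-0.27) and Gnas (-0.19) fell. Adrb1, the main beta receptor gene of heart muscle, was not called (-0.16, adjusted p = 0.23).

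**Figure D5:**
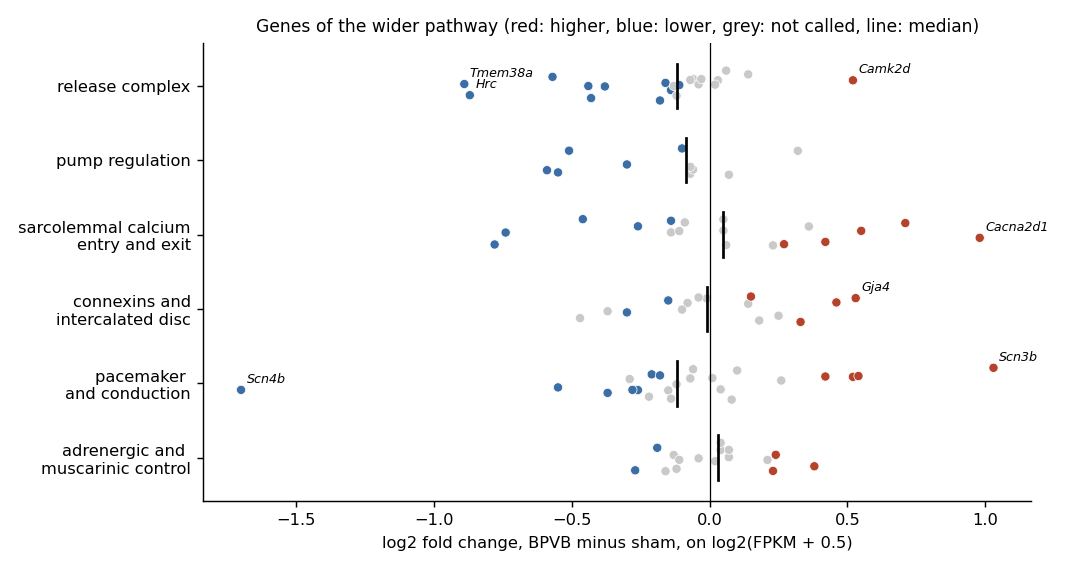
Log2 fold change (horizontal axis, BPVB minus sham) of each tested gene of the 6 lists. Points are genes, coloured by direction where the adjusted p was under 0.05, and black lines are list medians; the release complex list leans lower (10 lower, 1 higher) and the list for calcium entry and exit is split (5 and 5).

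The deposited annotation places Ryr2, Atp2a2, Casq2 and Cacna1c in the pathway "Cardiac muscle contraction". Of its other 69 tested genes, 44 were lower and 7 higher (73.9% called, beside 31.5% of all genes tested), and their median log2 fold change was -0.32, beside 0.02 for all genes tested. Of the other 131 tested genes of the pathway for adrenergic signaling in cardiomyocytes, which holds Ryr2, Atp2a2, Pln and Cacna1c, 16 were higher and 45 lower (46.6% called), with a median of -0.09. Of the other 181 tested genes of the calcium signaling pathway, which holds 5 of the 9 genes, 31 were higher and 42 lower (40.3% called), with a median of 0.01.

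By Pearson's r of log2(FPKM + 0.5) over the 6 libraries, the genes most like Ryr2 among the 12156 others that averaged 1 FPKM or more were Des (0.9996), Clec3b (0.9994), Gem (0.9992), Ccdc80 (0.9992) and Adam9 (0.9992). Des encodes the intermediate filament desmin of muscle. The 6 libraries fall into the 2 groups, so that a gene clearly higher after BPVB scores high and a clearly lower one strongly negative. An r above 0.9 was found for 1812 genes. Among the other 8 genes, r with Ryr2 was 0.99 for Pln, 0.98 for Gja1 and -0.99 for Atp2a2, and lowest in size for Gja5 (0.51).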

How the data were processed

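RNA-seq was performed on the PVs of 3 BPVB and 3 sham rats. By the study's methods, the authors used fastp for trimming, HISAT for mapping and HTSeq-count for counting, and the deposited unit is FPKM, with 1 library per rat. The submitters' processing notes instead name HISAT2 2.0.5, StringTie 1.3.3b, featureCounts 1.5.0-p3 and DESeq2 1.20.0. The genome build, annotation and strand setting are not given in the sources used here, so no coordinates of the counted genes are given. Without a strand setting, reads of overlapping antisense genes cannot be told apart.

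Column names (P, S) were matched to the labels' banded and sham libraries, and 0 sample columns stayed out of use. The whole fragments behind the FPKM were recovered for 100.00% of the 17833 genes within a relative distance of 1e-09, and used for depth and for limma-voom over genes with at least 10 fragments. PCR copies are not told apart in them. Among genes averaging 30 or more fragments, the ratio of variance to mean between libraries was 5.82 for BPVB and 5.25 for sham, above that of counting alone.

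Expression was compared with limma 3.58.1 in R 4.3.3 (lmFit, eBayes with trend) on log2(FPKM + 0.5) for genes averaging 0.1 FPKM or more, and the fit was tested on simulated data. DESeq2, named by the study, was not run here, and the recovered fragments were tested with limma-voom alone. Single ratios were compared by exact permutation tests with scipy 1.17.1. Genes named are the 9 genes, up to 3 largest called changes in each direction per list, marker genes, and the 5 genes most like Ryr2; some genes that the rule would name are not reported here. Other partners of the 9 genes were named for their function after their values were seen. They were Trdn, Cacna1g, Cacnb2, Cacnb3, Slc8a1, Gjc1, Adrb1, Tbx3, Tbx18, Shox2, Isl1 and Hcn2. The promoter motifs and the pathway terms were also named after the values were seen. The 9 genes and all lists were chosen with earlier results of these data known. Alternatives were other pseudocounts, filters and scalings, a block for the replicate number, eBayes in its robust form, a fold threshold, limma-voom, and each library left out in turn.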

Additional observations from a re-analysis of the deposited data

How the results depend on the processing

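All 9 genes kept the sign of their log2 fold change under all 16 alternative fits, and Ryr2, Atp2a2, Pln, Gja1 and Hcn4 kept their call in each. The number of the 9 genes called higher was 4, and was 5 with limma-voom and 0 with an absolute log2 fold change above 1 required. The number called lower was 2, and was 3 under median-of-ratios scaling and with limma-voom, 1 under TPM scaling, 0 with the fold threshold, and between 1 and 2 with each library left out. That of the 111 list genes was 17 higher and 31 lower, and 1 and 1 with the fold threshold. The same numbers on BPVB and sham libraries did not mark pairs (correlation of deviations 0.031, 0.025 and 0.019 for replicates 1, 2 and 3). With the replicate number as a block, 4 of the 9 genes were higher and 2 lower, and 16 and 30 list genes. Median-of-ratios scaling and quantile normalization set the median log2 fold change of all genes tested at 0.0019 and -0.0126, and TPM scaling at 0.0515, beside 0.0245. The number of all genes called with an absolute log2 fold change above 1 was 496, and was 325 with a pseudocount of 1, 901 with a pseudocount of 0.1 and 1122 with limma-voom. Hcn4, with as few as 41 fragments in a library, was limited most by depth. For the other 8 genes, at least 1021 fragments lay behind each value.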
